A study of Mus musculus with 89 samples.

Results

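Immediate early genes are the first genes that a cell transcribes when a growth factor, serum or stress signal arrives. Kinases of the MAPK cascades, among them ERK, switch on factors already bound at these genes, so their RNA appears without new protein synthesis and is then degraded within a short time. Many of the proteins are transcription factors: Fos and Jun family members pair up as AP-1, and Egr proteins bind GC-rich sites through zinc fingers. Mouse embryonic stem cells held in the naive state grow in a MEK inhibitor, which blocks the step just above ERK.

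The 10 genes described here are Fos, Fosb, Jun, Junb, Jund, Egr1, Egr2, Ier2, Atf3 and Zfp36. They were chosen by symbol, and each was found once among the 26276 named rows of an RNA-seq count table. The libraries came from V6.5 mouse embryonic stem cells of the genotype H2afz-FKBP-V, in which H2A.Z.1, a variant of the histone H2A, carries a tag through which the dTAG molecule directs it to degradation. There were 3 libraries labelled dTAG and 3 labelled control. All 6 shared the tag and a medium with 1 µM PD0325901, an inhibitor of MEK, 3 µM CHIR99021, an inhibitor of GSK3, and 1000 U/mL of the cytokine LIF. No library without the MEK inhibitor was analysed here, so a level could not be set against uninhibited cells. The dose and length of the dTAG treatment are not given for these RNA libraries in the sources used here, and nothing in the labels says that the replicates came from separate cultures or clones. P-values therefore measure only the spread between these libraries, which may be technical. The series holds 89 samples, of which the other 83 are not analysed here.

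The dTAG libraries differed from each other more than the controls did. dTAG replicate 1 held 13214351 counts, replicate 2 held 2284068 and replicate 3 held 2121183, against 14427884 to 16033011 in the controls. Olfactory and vomeronasal receptor genes, which stem cells do not use, had a count in 23.5% of their 1462 members in dTAG replicate 1, 71.5% in replicate 2 and 97.0% in replicate 3, against 10.9% to 18.2% in the controls. The summed level of 10 markers of naive stem cells was 2857, 1710 and 526 CPM (counts per 1000000 counts in named genes) in dTAG replicates 1, 2 and 3, against 2635 to 2773 CPM in the controls. The summed level of 10 fibroblast markers, fibroblasts being common feeder cells, was 45.7, 138 and 409 CPM in dTAG replicates 1, 2 and 3, against 31.6 to 43.7 CPM in the controls. Among these, Col3a1 had no count in dTAG replicate 1 or any control, while it stood at 7.04 CPM in dTAG replicate 2 and 44.1 CPM in replicate 3. A rise was not particular to fibroblast markers: 77.4% of all named genes lay above every control in dTAG replicate 3. The receptor genes summed to 165, 2447 and 8269 CPM in dTAG replicates 1, 2 and 3, against 52.6 to 62.9 CPM in the controls. The part of these differences in the results below was not tested. In bulk RNA, fewer cells that transcribe a gene and less RNA per cell cannot be told apart.

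Sequences just before the transcription start are shown for 4 of the genes. One is Junb, which had the highest level of the 10 in dTAG replicates 2 and 3, and another is Fos. In the other 2 a CArG box, the site bound by serum response factor (SRF), was found within 250 bases before a start. The sequences are from RefSeq, build GRCm38.p6 (mm10), on the strand of the gene. Those of Junb, Fos and Zfp36 are the 250 bases before the start, at chr8:84978749-84978998 (minus strand), chr12:85473640-85473889 (plus strand) and chr7:28379229-28379478 (minus strand). That of Egr2 is a stretch of 30 bases at chr10:67537793-67537822 (plus strand). Egr2 had several windows, from different starts, and the stretch was taken from the first with both a CArG box and TGACGT. It lies inside the RefSeq span of the gene, which begins at 67534469. Capitals mark a CArG box, TGACGT (the core of the cyclic AMP response element), TGACTCA (the AP-1 site) or TATAAA, on either strand.
Junb: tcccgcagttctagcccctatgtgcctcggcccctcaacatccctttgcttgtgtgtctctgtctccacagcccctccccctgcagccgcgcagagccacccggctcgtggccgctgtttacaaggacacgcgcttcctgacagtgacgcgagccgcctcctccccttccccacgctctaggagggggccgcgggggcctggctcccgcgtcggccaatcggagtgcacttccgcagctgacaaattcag
Fos: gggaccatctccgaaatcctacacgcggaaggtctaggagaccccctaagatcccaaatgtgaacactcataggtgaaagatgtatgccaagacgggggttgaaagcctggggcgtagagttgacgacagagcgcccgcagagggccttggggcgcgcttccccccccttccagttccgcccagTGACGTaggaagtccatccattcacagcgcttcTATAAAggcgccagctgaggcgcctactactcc
Zfp36: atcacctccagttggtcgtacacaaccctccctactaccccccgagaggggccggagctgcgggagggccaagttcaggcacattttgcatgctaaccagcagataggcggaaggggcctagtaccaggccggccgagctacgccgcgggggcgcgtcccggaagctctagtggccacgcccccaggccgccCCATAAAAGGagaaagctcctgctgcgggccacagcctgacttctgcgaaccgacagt
Egr2: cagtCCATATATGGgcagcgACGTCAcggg

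Windows of 250 bases before the start were given for 8 of the 10 genes, and none was available here for Ier2 or Egr1. A CArG box stood in windows of Egr2 and Zfp36, and in 1.47% of all 32851 windows. Egr2 had several windows, and the one at 67535249 held no CArG box. Shares here count each window, so they are not shares of genes. The CArG box in Zfp36 ran from 58 to 49 bases before the start. TGACGT stood in windows of Fos, Egr2 and Atf3, and in 6.47% of all windows. In Fos it lay 66 to 61 bases before the start, with TATAAA at 33 to 28 bases, and TATAAA stood in 12.4% of all windows. No window of the 8 genes held TGACTCA, which 4.46% of all windows held. GGGCGG, the core of sites for the factor Sp1, stood in windows of 6 of the 8 genes (Fos, Fosb, Jun, Egr2, Atf3 and Zfp36) and in 32.7% of all windows. None of these 5 motifs stood in the window of Junb or Jund. Such a match is a description of letters, not of binding. Sites farther than 250 bases before a start, in Fos as in the other genes, lay outside the windows and could not be seen.

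The Jun proteins can pair with themselves or with Fos proteins to form AP-1. Junb, a Jun protein that in many cells restrains Jun itself, lies on chromosome 8 at 84976909 to 84978748, and Ier2 lies 314 kb away on the same chromosome. Junb stood at 11.9, 144 and 413 CPM in dTAG replicates 1, 2 and 3, against 4.0, 5.37 and 2.55 CPM in control replicates 1, 2 and 3. Each dTAG library lay above every control, and the groups did not overlap. The counts behind these levels were 154, 308 and 749 in the dTAG libraries and 57, 84 and 36 in the controls. In dTAG replicate 3 Junb ranked 56th of the 26276 named genes by CPM, and in replicate 2 it ranked 746th, whereas in the controls its rank lay between 10737 and 12788.

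Jun, the founding member of the family, lies on chromosome 4 at 95049036 to 95052222. It stood at 13.2, 26.3 and 46.3 CPM in dTAG replicates 1, 2 and 3, against 5.83, 9.01 and 9.93 CPM in the controls. Jund, which many cells transcribe without a stimulus, lies on chromosome 8 at 70697739 to 70700616. It stood at 52.9, 75.1 and 184 CPM in dTAG replicates 1, 2 and 3, against 45.1, 47.9 and 34.1 CPM in the controls. For Jun and Jund, too, each dTAG library lay above every control. The margin was narrow for Jund in dTAG replicate 1, where the exact Poisson 95% interval of 49.0 to 57.0 CPM met that of control replicate 2, 44.5 to 51.4 CPM. These intervals, here and below, cover counting error only.

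Jun, Junb and Jund were thus the 3 of the 10 genes in which all 3 dTAG libraries lay above all 3 controls. Among all named genes this held for 22.7%. Jun, Junb, Jund and Ier2 have no introns, so their levels can be compared per kb of gene span. In dTAG replicate 3 the order was Junb at 225 CPM per kb, Jund at 63.8, Ier2 at 46.8 and Jun at 14.5. In the controls it was Jund at 14.7 ± 2.53 CPM per kb, Ier2 at 13.5 ± 3.73, Jun at 2.59 ± 0.676 and Junb at 2.16 ± 0.764 (SD, n = 3). In the controls Jund and Ier2, and likewise Jun and Junb, differed by less than their spread. Junb was the highest of these 4 per kb in dTAG replicates 2 and 3, with 78.5 CPM per kb in replicate 2 against 26.1 for Jund.

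**Figure D1:**
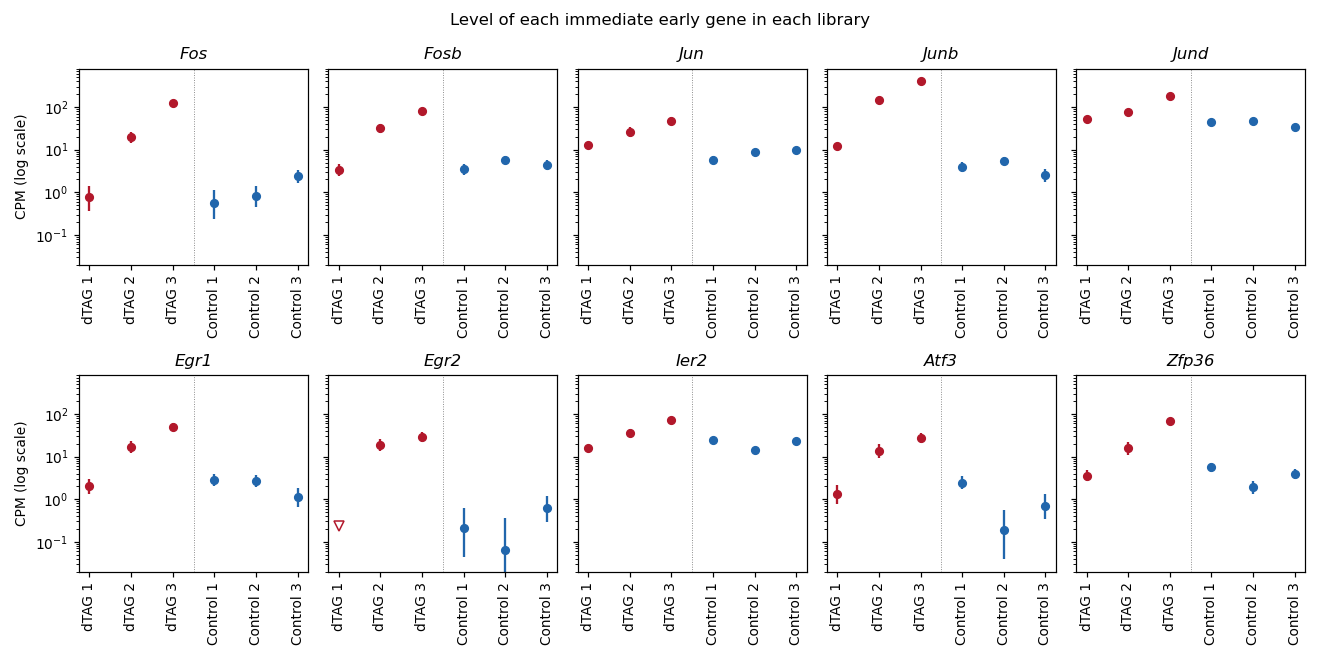
CPM on a log scale of each immediate early gene in dTAG replicates 1 to 3 (red) and control replicates 1 to 3 (blue), with exact Poisson 95% counting intervals as bars. The open triangle for Egr2 marks the limit of 0.232 CPM that 0 counts in dTAG replicate 1 allow. dTAG replicates 2 and 3 lie above every control for all 10 genes, and dTAG replicate 1 does so for Jun, Junb and Jund.

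Fos proteins need a Jun partner to bind DNA. Fos, the gene in which rapid induction by serum is best known, lies on chromosome 12 at 85473890 to 85477274. It stood at 0.775, 19.7 and 124 CPM in dTAG replicates 1, 2 and 3, from 10, 42 and 225 counts. In the controls it stood at 0.562, 0.831 and 2.41 CPM, from 8, 13 and 34 counts. dTAG replicate 1 lay within the range of the controls, and dTAG replicates 2 and 3 lay above it. The ratio to the control mean of 1.27 CPM was 15.5 in dTAG replicate 2 and 97.9 in replicate 3.

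Fosb, which encodes a close relative of Fos, lies on chromosome 7 at 19302696 to 19310118. It stood at 3.41, 31.4 and 82.2 CPM in dTAG replicates 1, 2 and 3, against 3.44, 5.88 and 4.4 CPM in the controls. dTAG replicate 1 was marginally below the lowest control, by less than its counting interval of 2.48 to 4.58 CPM. Atf3, a stress-induced factor of the same bZIP class, lies on chromosome 1 at 191170296 to 191183333. It stood at 1.32, 13.6 and 27.6 CPM in dTAG replicates 1, 2 and 3, against 2.46, 0.192 and 0.71 CPM in the controls. Its controls differed among themselves by more than counting error, since control replicate 1 had 35 counts and control replicates 2 and 3 had 3 and 10.

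Egr1 is the most studied of the early growth response factors, which the Nab corepressors restrain. It stood at 2.01, 16.9 and 48.6 CPM in dTAG replicates 1, 2 and 3, against 2.88, 2.68 and 1.14 CPM in the controls. dTAG replicate 1 lay inside the range of the controls. Egr2, which patterns the hindbrain and drives myelination, lies on chromosome 10 at 67534469 to 67542188. It had no count in dTAG replicate 1, which allows up to 3 counts or 0.232 CPM, and stood at 18.8 and 28.7 CPM in dTAG replicates 2 and 3. In the controls it had 3, 1 and 9 counts, or 0.211, 0.0639 and 0.639 CPM. It had at most 9 counts in each of these 4 libraries, and dTAG replicates 2 and 3 lay above all of them.

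Ier2, a small nuclear protein of the immediate early response, lies on chromosome 8 at 84661331 to 84662852. It stood at 16.3, 36.1 and 71.2 CPM in dTAG replicates 1, 2 and 3, against 24.6, 14.1 and 22.9 CPM in the controls. dTAG replicate 1 lay inside the control range, and dTAG replicates 2 and 3 lay above it. Zfp36 encodes tristetraprolin, which binds AU-rich elements and speeds the decay of short-lived RNAs, those of many immediate early genes included. It lies on chromosome 7 at 28376784 to 28379228. It stood at 3.56, 16.0 and 67.3 CPM in dTAG replicates 1, 2 and 3, against 5.62, 1.92 and 3.97 CPM in the controls. As for Ier2, dTAG replicate 1 lay inside the control range. No named row of the table belongs to a RefSeq gene that overlaps any of the 10.

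All 10 genes lay above every control in dTAG replicate 2 and in dTAG replicate 3. This also held for 65.6% of all named genes in replicate 2 and for 77.4% in replicate 3. In dTAG replicate 1 it held for 3 of the 10, a share close to the 31.1% of all named genes, and 2 of the 10, Fosb and Egr2, lay below every control, as did 12.5% of all named genes. Both were below by less than counting error, since the limit of 0.232 CPM for Egr2 lies above control replicates 1 and 2. Summed over the 10 genes, the level was 105, 398 and 1093 CPM in dTAG replicates 1, 2 and 3, against 94.7, 87.8 and 82.7 CPM in the controls.

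The size of the difference set some of the 10 apart from most named genes. As a log2 ratio of CPM + 1 to the control mean, Junb stood at 1.38, 4.87 and 6.38 in dTAG replicates 1, 2 and 3, which was at the 98.6, 99.6 and 99.6 percentile of all named genes. Fos stood at -0.35, 3.19 and 5.79, at the 9.93, 92.1 and 98.6 percentile. Egr2 stood at the 97.4 percentile in dTAG replicate 2 and the 89.7 percentile in replicate 3. Jund, with log2 ratios of 0.81 and 2.09 in dTAG replicates 2 and 3, stood at the 48.8 and 49.4 percentile. Ier2, with 0.79 and 1.74, stood at the 48.3 and 44.1 percentile, so these 2 genes were near the middle of the table. The pseudocount of 1 CPM understates the ratios of genes near 0.

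**Figure D2:**
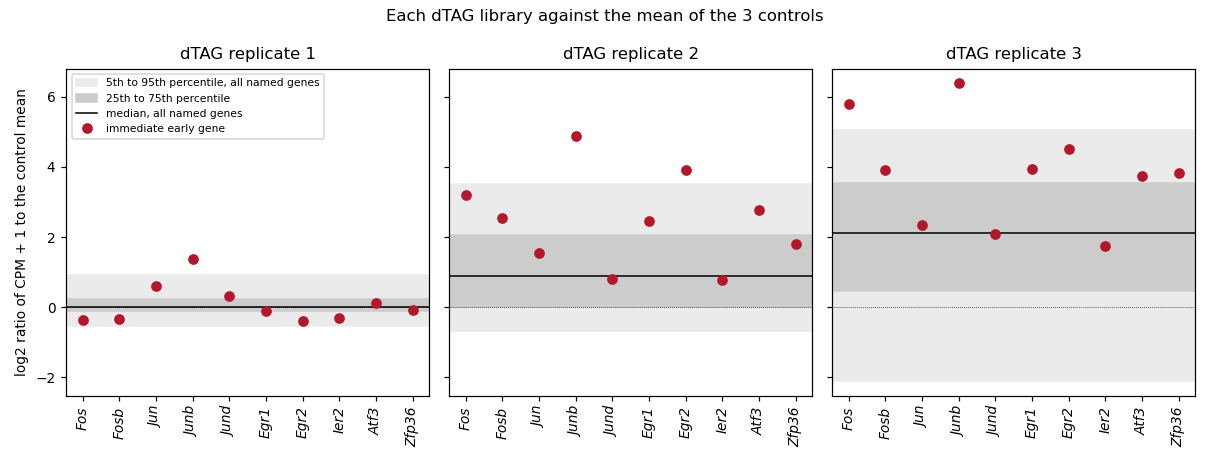
Log2 ratio of CPM + 1 to the mean of the 3 controls for the 10 genes (red points), in 1 panel for each dTAG library, beside the spread of all 26276 named genes (grey bands, with the median as a line). Junb lies above the 95th percentile of all named genes in every panel, at 1.38, 4.87 and 6.38, and Jund and Ier2 lie near the median in dTAG replicates 2 and 3.

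Over all 6 libraries, none of the 10 genes passed the test between dTAG and control (edgeR's quasi-likelihood test with Benjamini-Hochberg adjustment over all genes tested, threshold 0.05). Of the 18116 genes tested, 0 passed, which is 0%, and 4202 had an unadjusted p under 0.05. Egr2 did not reach the filter on low counts, and 4 of the other 9 had an unadjusted p under 0.05. limma-voom also called 0. Junb had the largest log2 fold change of the 9, 4.31 (SE 0.88, adjusted p = 0.0795), with all 3 dTAG libraries higher. That of Fos was 3.80 (SE 1.26, adjusted p = 0.126), with 1.58 in limma-voom and 2.32 without dTAG replicate 3 in edgeR. That of Atf3 was 2.51 (SE 1.11, adjusted p = 0.224), and each of these genes had 2 dTAG libraries above every control. The filter asks for a minimum level in 3 libraries, which neither Fos nor Atf3 met within the controls. Both entered this test only through their dTAG libraries, so their values here are a description. Egr1 had a log2 fold change of 2.08 (SE 0.84, adjusted p = 0.182), Fosb 1.84 (SE 0.72, adjusted p = 0.173) and Zfp36 1.64 (SE 0.75, adjusted p = 0.235). Jun had 0.83 (SE 0.40, adjusted p = 0.256), Jund 0.32 (SE 0.38, adjusted p = 0.541) and Ier2 0.01 (SE 0.35, adjusted p = 0.988). These values rest on edgeR's TMM scaling, on which the median of all tested genes was 0.16, whereas on library totals alone it was 1.20. Relative to that median, Ier2 was at -0.15 and Jund at 0.16 with TMM, and at -0.12 and 0.18 with library totals. Without the filter on low counts, where that median was 1.02, Ier2 was at -1.22, Jund at -0.88 and Jun at -0.39 relative to it. The median of the 9 genes was 1.84 with TMM.

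The call depended on the libraries and on the tool. Without dTAG replicate 1, 6 of the 9 genes tested over all 6 libraries were called higher: Junb, Fos, Fosb, Egr1, Atf3 and Zfp36, with edgeR adjusted p between 5.96e-05 for Junb and 0.0214 for Atf3. In that fit 40% of all 22093 genes tested were called higher and 59.8% in either direction. Egr2 reached the filter there only through its counts in dTAG replicates 2 and 3, so its call is not counted. Jun, Jund and Ier2 were not called there, with adjusted p = 0.15, 0.897 and 0.795. DESeq2 without the filter called Junb and Fos higher (adjusted p = 6.54e-05 and 0.014), while it called 20.2% of 25668 genes higher. edgeR without the filter called Junb (adjusted p = 0.022), while it called 5.45% of the same genes higher. DESeq2 also gave Egr2 an adjusted p of 0.0365, which is not counted either. DESeq2's own filter on mean count stayed on, and the mean of Egr2 rests mostly on dTAG replicates 2 and 3. The means of Junb and Fos do so too, with dTAG means of 190 and 48.2 CPM against control means of 3.97 and 1.27 CPM. Their DESeq2 calls therefore carry the same limit. Here and below, DESeq2 with no filter means without edgeR's filter only.

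dTAG replicate 1 was close to the controls across the table, with a rank correlation of 0.946 to 0.951 across genes, which are not independent replicates, against 0.955 to 0.959 between controls. Set against the 3 controls alone, it gave no call among the 10 (edgeR, 9 tested), with 0.0606% of 18143 genes called higher and 0.0882% called in either direction. Such a fit takes the spread of a single dTAG library from the controls. DESeq2 gave no call among the 10 either, where it called 0.0607% of 23058 genes higher and 0.0867% in either direction, and 1 of the 9 had an unadjusted p under 0.05 with edgeR. That gene was Junb, with a log2 fold change of 1.49 (SE 0.50, adjusted p = 0.555). The log2 fold change was 0.58 (SE 0.42, adjusted p = 0.973) for Jun and 0.24 (SE 0.21, adjusted p = 0.985) for Jund. Those of Fos, Fosb, Egr1, Ier2 and Zfp36 were below 0, from -0.80 for Fos to -0.17 for Zfp36, and that of Atf3 was 0.19, all with adjusted p over 0.9 in edgeR. An adjusted p above the threshold does not show that the levels were equal.

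The share of receptor gene counts can be carried over to the 10 genes by arithmetic, a step chosen after the values were seen. The excess of the summed receptor genes over the control mean in dTAG replicate 1 was 1.32% of that in dTAG replicate 3, and in dTAG replicate 2 it was 29.1%. A mixture of the control mean with those shares of dTAG replicate 3 gives a computed level for each gene. In dTAG replicate 2, Junb was observed at 144 CPM (95% interval 129 to 162), against 123 CPM computed. Ier2 was observed at 36.1 CPM against 35.3 computed, Egr1 at 16.9 against 15.7, Fosb at 31.4 against 27.2 and Jund at 75.1 against 83.5. For 4 of the 10 the computed level lay within the counting interval.

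Fos and Egr2 departed most from the computed level. Fos was observed at 19.7 CPM (95% interval 14.2 to 26.6) in dTAG replicate 2, below the 37.0 CPM computed. Egr2 was observed at 18.8 CPM (13.4 to 25.6), above the 8.57 CPM computed. The other 8 genes were within 1.5-fold of the computed level on the CPM + 1 scale, as were 81.7% of the 17924 genes with a computed level of at least 5 CPM. In dTAG replicate 1, Junb was observed at 11.9 CPM (10.1 to 14.0) against 9.39 CPM computed, of which 5.47 CPM came from the part of dTAG replicate 3. Jun was observed at 13.2 CPM (11.3 to 15.3) against 8.76 computed, and Jund at 52.9 CPM (49.0 to 57.0) against 44.2 computed. Fos, Fosb, Ier2 and Egr2 lay below the computed level there, with 0.775 CPM against 2.89 for Fos, 3.41 against 5.6 for Fosb, 16.3 against 21.2 for Ier2 and 0 against 0.68 for Egr2. For 3 of the 10 the computed level lay within the counting interval, and 8 of the 10 were within 1.5-fold of it on the CPM + 1 scale. So were 92.9% of the 11454 genes with a computed level of at least 5 CPM. Fos, Egr1, Egr2, Atf3 and Zfp36 had computed levels below 5 CPM there, where adding 1 CPM shrinks the ratio. The share of all genes is therefore not a like comparison for the 10. The computed levels carry errors of their own, from the spread of the controls and from 1 library, that the intervals do not cover.

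**Figure D3:**
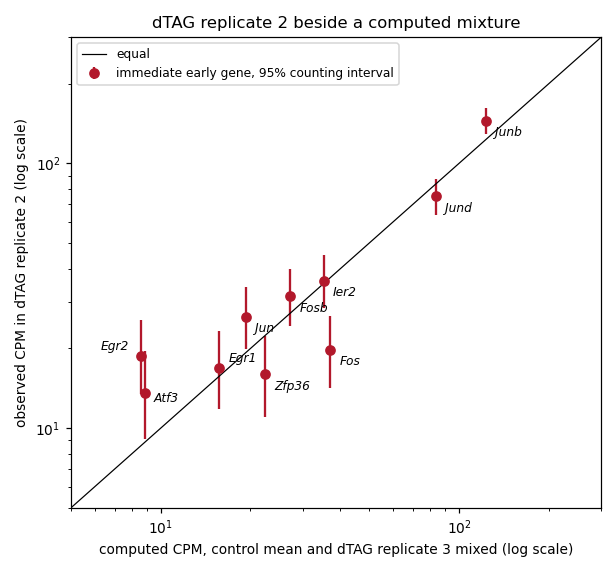
Observed CPM of the 10 genes in dTAG replicate 2 (vertical, with exact Poisson 95% counting intervals) against the level computed from 29.1% of dTAG replicate 3 and the remainder from the control mean (horizontal), both on log scales, with a line of equality. Fos lies below the line, at 19.7 against 37.0 CPM, and Egr2 above it, at 18.8 against 8.57 CPM.

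Genes whose levels over the 6 libraries were nearest to each of the 10 were found by the Euclidean distance of log2(CPM + 1). For Junb the nearest was Arhgap22, at a distance of 0.62, with 10.2, 127 and 418 CPM in dTAG replicates 1, 2 and 3, against 3.37, 3.64 and 1.99 CPM in the controls. For Jun the 3 nearest were Xrcc3, G6pc3 and Rrm2b, at 0.28 to 0.41, and for Ier2 they were Mbd1, Lzic and Hipk2, at 0.21 to 0.36. For none of the 10 was another of the 10 among the 3 nearest genes. Among 26276 named genes such a hit would be rare for any 10, so its absence is no result about them. The closest 2 of the 10 were Egr1 and Zfp36, at 1.67, and the nearest of the 10 to Junb was Fosb, at 3.59.

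Genes around the 10 in the same pathway were described from lists, and edgeR called 0 members of any of them in either comparison. Of 40 other primary response genes, 15 lay above every control in dTAG replicate 1, 29 in replicate 2 and 33 in replicate 3, near the shares of all named genes, 31.1%, 65.6% and 77.4%. Their median log2 ratio of CPM + 1 was 0.08, 1.34 and 2.30 in dTAG replicates 1, 2 and 3, against 0, 0.88 and 2.11 for all named genes and -0.09, 2.50 and 3.86 for the 10. In dTAG replicate 3, 6 of the 40 were lower than every control, beside 15.5% of all named genes and 9 of the 10 naive stem cell markers. The 3 most abundant of the 40 in the controls were among these 6. Sgk1, a kinase induced by serum and glucocorticoid, had 268, 246 and 129 CPM in dTAG replicates 1, 2 and 3, against 274 ± 19.2 CPM in the controls (SD, n = 3). Mcl1, a survival protein, had 257, 185 and 105 CPM, against 247 ± 19.7 CPM in the controls (SD, n = 3), and Klf2, a factor of the naive network, had 153, 106 and 70.6 CPM, against 153 ± 6.23 CPM in the controls (SD, n = 3).

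Of 12 other bZIP partners of Fos and Jun proteins, 10 lay above every control in dTAG replicate 3 and 2 lay below, near the shares of all named genes in that library, 77.4% above and 15.5% below. The 2 were Atf4 and Atf2, the most abundant in the controls, which had 35.9 and 24.3 CPM in dTAG replicate 3, against 132 ± 15.6 and 97.5 ± 9.25 CPM in the controls (SD, n = 3). Mafg had 22.9, 27.2 and 49.1 CPM in dTAG replicates 1, 2 and 3, against 24.8 ± 5.96 CPM in the controls (SD, n = 3).

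Upstream of the 10 genes, the 19 kinases and GTPases of the MAPK cascades had a median log2 ratio of 0.12, -0.04 and 0.19 in dTAG replicates 1, 2 and 3. In dTAG replicate 3, 9 of them lay above every control and 7 below, against 77.4% and 15.5% of all named genes. Map2k2, one of the MEK kinases that PD0325901 inhibits, had 115, 100 and 83.9 CPM in dTAG replicates 1, 2 and 3, against 107 ± 9.13 CPM in the controls (SD, n = 3). Rps6ka1, an ERK-activated kinase, had 82.7, 94.8 and 71.2 CPM, against 78.7 ± 12.6 CPM in the controls (SD, n = 3).

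Among 9 factors that bind serum and cyclic AMP response elements, 8 lay above every control in dTAG replicate 3 and 1, Atf1, lay below, near the 77.4% and 15.5% of all named genes. Mkl2, a cofactor of SRF, had 29.4, 43.6 and 98.2 CPM in dTAG replicates 1, 2 and 3, against 42.1 ± 0.635 CPM in the controls (SD, n = 3). Creb1 had 44.9, 54.9 and 58.5 CPM, against 39.3 ± 8.37 CPM in the controls (SD, n = 3). Downstream, 10 ERK feedback genes had a median log2 ratio of 0.07, 1.90 and 3.29 in dTAG replicates 1, 2 and 3, beside -0.02, 1.95 and 3.41 for the fibroblast markers, whose part was not tested. In dTAG replicate 3, 8 of the 10 feedback genes lay above every control and 2 lay below, near the 77.4% and 15.5% of all named genes. The 2 below, Etv5 and Spry2, were among the most abundant of the list in the controls. Etv5, an ERK-dependent factor, had 46.9 CPM and Spry2, an inhibitor of receptor signalling, had 17.1 CPM in dTAG replicate 3. In the controls they had 101 ± 12.0 and 45.8 ± 4.92 CPM (SD, n = 3). Spred2, another inhibitor of this signalling, had 53.0 CPM there, against 24.2 ± 6.65 CPM in the controls (SD, n = 3).

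Both Egr corepressors lay above every control in dTAG replicates 2 and 3, as did 65.6% and 77.4% of all named genes. Nab2 had 10.4, 27.2 and 119 CPM in dTAG replicates 1, 2 and 3, against 12.1 ± 3.3 CPM in the controls (SD, n = 3), and Nab1 had 20.8, 44.1 and 57.9 CPM, against 18.2 ± 2.03 CPM in the controls (SD, n = 3). The list of Zfp36 paralogues, the CCR4-NOT deadenylase that Zfp36 recruits and the RNA-binding protein Elavl1 had 4 of 10 genes above every control and 6 below in dTAG replicate 3, against 77.4% and 15.5% of all named genes. Cnot1, the scaffold of the deadenylase, had 461, 311 and 81.7 CPM in dTAG replicates 1, 2 and 3, against 471 ± 47.2 CPM in the controls (SD, n = 3).

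**Figure D4:**
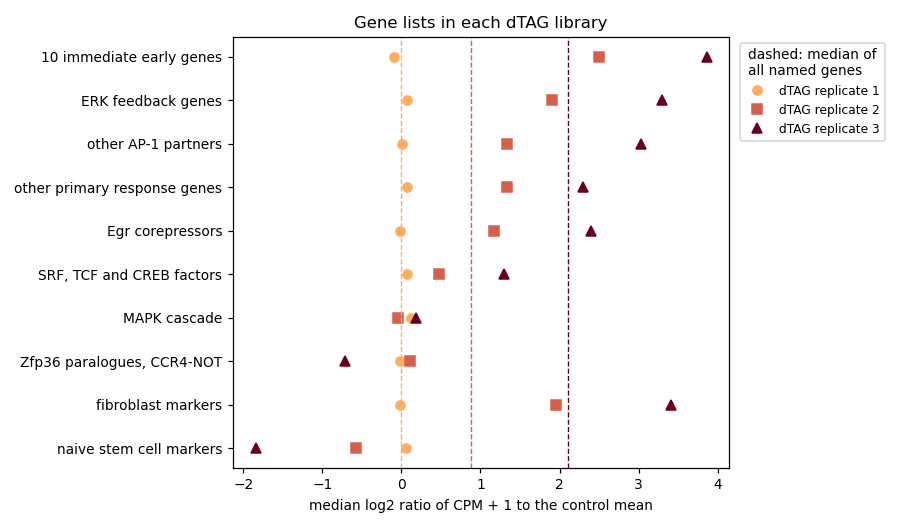
Median log2 ratio of CPM + 1 to the control mean for each gene list (rows) in dTAG replicates 1, 2 and 3 (symbols), with the median of all named genes in each library as a dashed line. The 10 immediate early genes stand at -0.09, 2.50 and 3.86, the ERK feedback genes at 0.07, 1.90 and 3.29, and the naive stem cell markers lie below 0 in dTAG replicates 2 and 3.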

How the data were processed

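The authors deposited raw counts per gene for the 6 RNA libraries in 1 table of 27179 rows, per the file headers. Columns and groups were matched by the sample titles. Per the labels' protocols, ERCC RNA was added and reads were 75 bp paired ends, and the preparation is called both stranded with ribosomal depletion and an mRNA kit. The submitters' processing notes name build mm10 and, among tools, featureCounts, limma, edgeR and STAR (version 2.7.2b). Settings, annotation and use of strand: not given in the sources used here. The table held 0 rows named as ERCC, so total RNA per cell was not measured. Rows without a symbol, 903, were left out. They held 2.33%, 6.67% and 14.6% of the counts in dTAG replicates 1, 2 and 3, against 2.20% to 2.37% in the controls. No 2 libraries were copies (lowest chi-square for any pair 9.82 per gene).

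CPM are counts per 1000000 counts in named rows. Tests used edgeR 4.0.16 in R 4.3.3 (glmQLFit, glmQLFTest, two-sided, TMM, filterByExpr with a minimum count of 10 and a minimum total of 15, design of group alone) on the whole table, with DESeq2 1.42.0 and limma-voom (limma 3.58.1) among the alternatives. The fits were also run on simulated counts, which varied less between libraries than these and held no shift across the whole table. That run does not show how the tests perform on these libraries. The TMM factors were 0.774, 1.23 and 2.49 for dTAG replicates 1, 2 and 3, against 0.727 to 0.789 for the controls. One count was worth 0.0775, 0.469 and 0.552 CPM in dTAG replicates 1, 2 and 3, against 0.0639 to 0.071 CPM in the controls. Poisson intervals and the floor of 3 counts cover counting error only. With 3 libraries against 3, an exact permutation test of a single gene cannot go below 0.1, so none was used.

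The 10 genes and the lists were chosen with earlier results of these data known. Genes are named by a rule: all 10 genes; of each list the members past the threshold or, with none, up to 3 with the highest control mean; and the 3 nearest genes to each of the 10. Some genes that this rule names are not reported here. Examples from lists outside this rule, such as Col3a1, were chosen after their values were seen. Gene positions are RefSeq GRCm38.p6, whose symbols matched 95.5% of the 26276 named rows.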

Additional observations from a re-analysis of the deposited data

How the results depend on the processing

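Of the 18116 genes tested over all 6 libraries 0 were called, and 1398 were called without the filter on low counts, 5196 with DESeq2 and no filter, 13 with a replicate block and 16 with dTAG replicates 2 and 3 left out. Leaving out 1 library in turn gave 0 to 13222 calls, 13222 without dTAG replicate 1 and 0 without each of the others. Against dTAG replicate 1 alone 16 genes were called, and 41 without the filter and 20 to 60 without 1 control, the 60 without control replicate 1. Why the calls moved was not tested, beyond the fewer libraries that each such fit holds. No pairing by replicate number was seen: the deviations of same-numbered libraries from their group means correlated at 0.04, -0.03 and 0.03. dTAG replicates 1 and 3, but not 2, correlated best with the control of their own number. The wide differences among the dTAG libraries could hide a pairing, so it is not excluded. With the replicate block none of the 10 genes was called.

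Over the 6 libraries Junb stayed higher in all 14 alternatives, with a log2 fold change of 1.49 to 5.67 and an adjusted p of 5.96e-05 to 0.555. Jun, Jund and Atf3 were also above 0 in all 14, though relative to the median of all genes Jun was at -0.46 and Jund at -0.98 with DESeq2 and no filter, and Jund was at -0.61 without dTAG replicate 1. Fos ranged to 5.34 on library totals, and Zfp36 was at 0.79 without dTAG replicate 3. The sign of Ier2, at 0.01, turned with most settings: -0.20 without the filter, -0.047 with DESeq2 and no filter, -0.0069 with unnamed rows kept, and -0.38 to -0.054 without 1 library. With dTAG replicates 2 and 3 left out, the log2 fold changes were -0.80 for Fos, -0.52 for Fosb, -0.23 for Egr1, -0.41 for Ier2 and -0.17 for Zfp36. For dTAG replicate 1 against the controls, leaving out 1 control gave -0.48 to 0.17 for Zfp36, -0.31 to 1.43 for Atf3 and -1.16 to 0.068 for Fos. Depth limits the genes near 0 most: Egr2 rests on 13 counts in all 3 controls, and 1 count in dTAG replicate 3 is worth 0.552 CPM.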

Other observations

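A few genes of the pathway lists were chosen after their values were seen, and none passed edgeR's test over the 6 libraries. Npas4, a factor best known from active neurons, had 0.852, 23.9 and 66.2 CPM in dTAG replicates 1, 2 and 3, against 0.491, 0.256 and 0.355 CPM in the controls (log2 fold change 5.05, SE 1.16, edgeR adjusted p = 0.0795, higher in 3 of 3 dTAG libraries). Npas4 passed the filter on low counts only through its dTAG libraries. Egr4 had 1.32, 32.4 and 72.8 CPM in the dTAG libraries, against 0.351, 0.383 and 1.06 CPM in the controls. Ier5 had 20.2, 38.9 and 73.4 CPM in the dTAG libraries, against 7.72, 6.45 and 8.37 CPM in the controls (log2 fold change 1.59, SE 0.33, edgeR adjusted p = 0.0795). Zfp36l1, a paralogue of Zfp36, had 13.6, 33.3 and 100.4 CPM in the dTAG libraries, against 4.7, 6.26 and 10.8 CPM in the controls. In each of these 4 genes all 3 dTAG libraries lay above all 3 controls, as in Jun, Junb and Jund and in 22.7% of all named genes.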
